A study of Mus musculus with 6 samples.

Results

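The BCL2 family decides whether a cell releases the contents of its mitochondria and dies. Transcripts of 10 of its genes (Bax, Bak1, Bok, Bcl2, Bcl2l1, Bcl2l2, Mcl1, Bcl2l11, Bid and Bad) were followed in whole mouse testis. They were chosen by name, as gene symbols equal to these 10, and all 10 were found among the 24411 genes listed for each library. All 6 libraries came from testes of age-matched C57BL/6 mice, a standard inbred strain. Animals carrying the label MRP5-/- and MRP9-/- gave 3 libraries, called DKO here, and Wildtype animals gave the other 3, called WT. The proteins named MRP5 and MRP9 are membrane transporters of the ABCC family, encoded by Abcc5 and Abcc12. The sources used here do not give the ages, the design of the alleles or whether littermates were used. The design text gives 3 mice for each group, and a library is taken as 1 mouse.

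Proteins of the family share short BCL2 homology (BH) motifs and act in 3 roles. The effectors BAX and BAK, and the related BOK, form pores in the outer mitochondrial membrane through which cytochrome c escapes to activate caspases. The guardians BCL2, BCL-XL (from Bcl2l1), BCL-W (from Bcl2l2) and MCL1 hold the effectors and their activators in check. The BH3-only proteins BIM (from Bcl2l11), BID and BAD relay stress signals, either by activating effectors or by occupying guardians. Germ cells die in large numbers during normal spermatogenesis. Male mice without Bax are sterile, with an excess of immature germ cells, and mice without Bcl2l2 lose their germ cells in adulthood. Much of the control of this family acts on the proteins (cleavage of BID, phosphorylation of BAD, turnover of MCL1), which RNA does not show.

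Expression is given on 2 scales. CPM is a gene's count relative to the library total, scaled between libraries by the TMM method, and serves to compare 1 gene between libraries. TPM, as deposited, also divides by transcript length and serves to compare genes with each other. The targeted genes were looked at first. Abcc12 had 72.6 to 82.4 CPM in libraries labelled DKO and 158 to 165 CPM in those labelled WT (log2 fold change -1.02; edgeR adjusted p = 0.000307). Abcc5 had 16.7 to 17.0 CPM against 10.5 to 12.3 CPM (log2 fold change 0.56; edgeR adjusted p = 0.0225), so its transcript was not lower in libraries labelled DKO, and a count over a whole gene cannot show a missing exon. Groups are therefore named by their labels. Total expected counts were 42673615 to 67131103 in libraries labelled DKO and 26753721 to 31745969 in those labelled WT. The mean fragment length was 275 to 317 bases against 230 to 258 bases. Neither depth nor fragment length overlapped between the groups, and their share in any difference cannot be told apart from genotype by these labels.

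The tissue carried its defining markers. Summed over 12 spermatid markers, the level was 108700 to 118400 TPM labelled DKO and 100900 to 110500 TPM labelled WT. These ranges overlapped, and 1 of the 12 was called higher. Over all 6 libraries, 6 epididymis markers summed to 0.13 to 0.58 TPM, with 2 of the 6 at 0 in every library. Summed levels of 10 spermatogonia markers (90.5 to 109 TPM labelled DKO, 91.4 to 109 TPM labelled WT), 7 immune markers (23.4 to 25.6 against 23.8 to 29.1 TPM), 5 endothelial markers (8.78 to 11.03 against 10.9 to 12.6 TPM) and 5 erythroid markers (20.3 to 37.8 against 21.5 to 24.6 TPM) overlapped between the groups. So did those of 8 Leydig markers (864 to 1521 against 1499 to 3146 TPM), of which 3 were called lower. Sertoli markers (12 genes, none at 0 in any library) summed to 1621 to 1943 TPM in libraries labelled DKO and 2052 to 2609 TPM in those labelled WT, without overlap, and 3 were called lower. The 5 peritubular myoid markers summed to 64.3 to 75.2 against 75.4 to 111 TPM, and 12 spermatocyte markers to 5251 to 5611 against 5024 to 5185 TPM, again without overlap, with 1 called lower and 3 called higher. The most abundant gene of each list was Prm2 (spermatid), Uchl1 (spermatogonia), Ldhc (spermatocyte), Clu (Sertoli), Insl3 (Leydig), Acta2 (myoid), Cdh5 (endothelium), Cd74 (immune), Alas2 (erythroid) and Cst11 (epididymis). In bulk tissue, fewer cells of a type and less RNA per cell cannot be told apart. What part these marker differences have in the values below was not tested.

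The 10 transcripts spanned a wide range of levels. Bad, whose protein occupies BCL-XL and BCL2 when it is not phosphorylated, had the highest mean, at 87.3 TPM over the 6 libraries (76.7 to 96.8 TPM). Bcl2l1 followed at 56.6 TPM (53.8 to 61.6 TPM) and Mcl1 at 37.1 TPM (34.7 to 43.2 TPM). The ranges of these 3 did not overlap with each other or with that of the next gene. Bcl2l2 (17.8 TPM), Bax (12.6 TPM) and Bak1 (10.3 TPM) came next, and each overlapped its neighbour in this order. Bok (4.45 TPM), Bid (3.82 TPM) and Bcl2l11 (2.63 TPM) formed another overlapping run, below Bak1 in every library. Bcl2, the gene after which the family is named, was lowest at 0.257 TPM (0.19 to 0.34 TPM). Bcl2l1, Mcl1 and Bcl2l2 supplied nearly all guardian transcript in these testes. Of the summed TPM of the 10 genes, Bad made up 37.4% on average, Bcl2l1 24.4%, Mcl1 16.0% and Bcl2 0.110%.

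**Figure D1:**
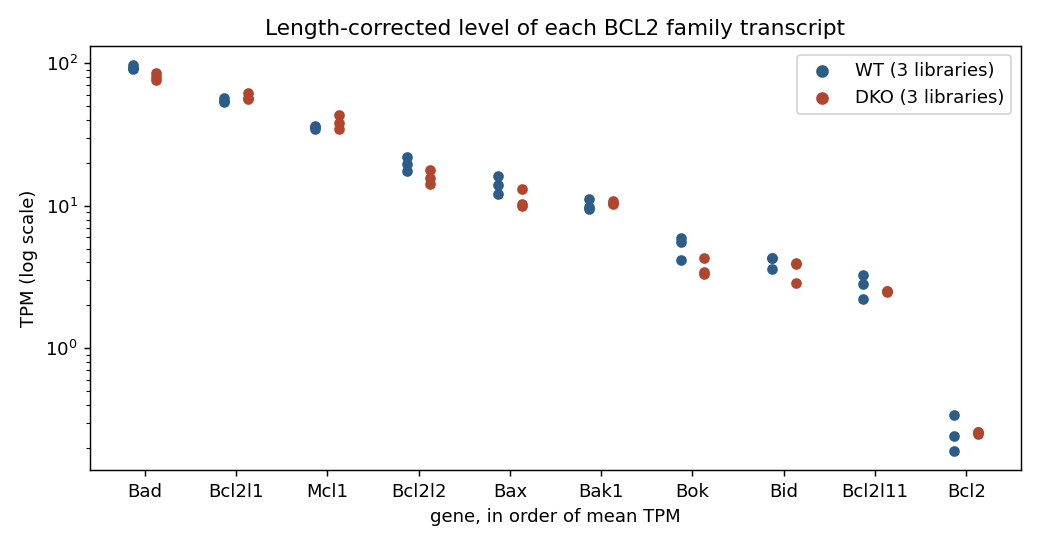
Level of each of the 10 BCL2 family transcripts in TPM on a log axis, in order of mean level; each point is 1 library, with WT left and DKO right. Bad lies highest at 76.7 to 96.8 TPM and Bcl2 lowest at 0.19 to 0.34 TPM in both groups.

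Whether any of these transcripts differed between the labelled genotypes was read from an edgeR quasi-likelihood fit over all 17110 tested genes. All 10 passed the filter on low counts. At an adjusted p under 0.05, 0 of the 10 were called, against 10.8% of all tested genes (5.75% higher and 5.10% lower in libraries labelled DKO). At an unadjusted p under 0.05 there were 4 (Bok, Bcl2l2, Bad and Bax, all lower), where 31.7% of all tested genes were. Limma-voom and limma on log2 TPM also called 0 of 10, and DESeq2 called 0 of the 9 for which it gave an adjusted p (all but Bcl2). The fold changes were negative for 6 members and positive for 4. Their median log2 fold change was -0.10, beside -0.0042 for all tested genes. In CPM the groups did not overlap for 4 of the 10, with 3 lower (17.5% of all tested genes) and 1 higher (18.4%), 35.9% in either direction. Having 4 of 10 genes without overlap is close to the share across the transcriptome, and is not a result about these genes.

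**Figure D2:**
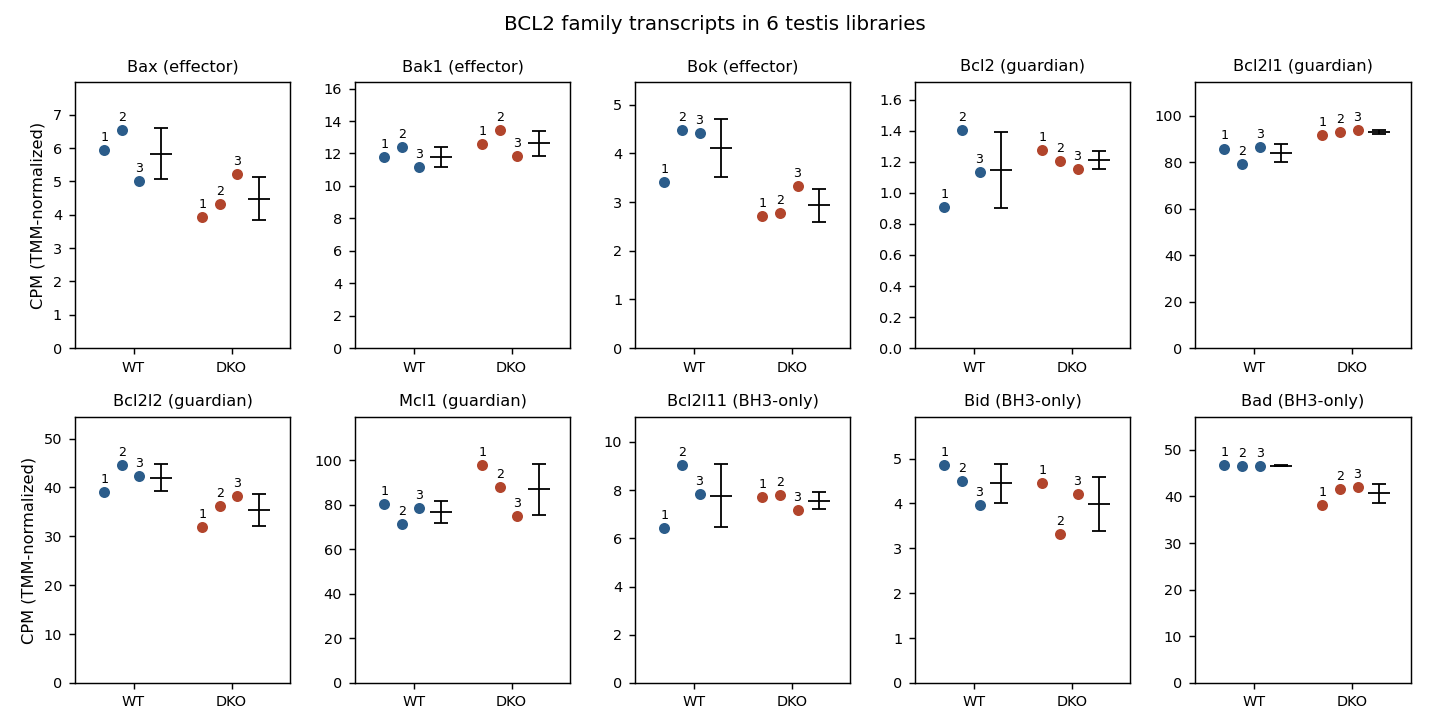
TMM-normalized CPM of each member in the 3 libraries labelled WT (blue) and the 3 labelled DKO (red), numbered by replicate; bars give mean and SD, and each vertical axis starts at 0. The groups are apart for Bok, Bcl2l2, Bad and Bcl2l1 and overlap for the other 6.

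Promoter windows are shown for the 4 members with an unadjusted p under 0.05, as a description of the members with the smallest p. None of the 4 was called, and 4 of 10 is close to the 31.7% of all tested genes. The sequences are from RefSeq for GRCm38.p6, run 5′ to 3′ on the gene's strand from 250 bases before a transcript start to 50 after it, and for Bad the upstream of 2 starts is given. Capitals mark the GC box GGGCGG, or CCGCCC on the other strand, a short motif bound by SP1-type factors.
Bok (chr1:93685325-93685624, plus strand): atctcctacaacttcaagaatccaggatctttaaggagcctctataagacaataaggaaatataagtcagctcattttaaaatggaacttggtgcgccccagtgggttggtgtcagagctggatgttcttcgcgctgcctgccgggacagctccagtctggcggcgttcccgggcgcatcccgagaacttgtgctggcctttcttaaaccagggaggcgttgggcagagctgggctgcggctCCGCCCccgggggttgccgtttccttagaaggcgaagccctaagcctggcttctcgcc
Bcl2l2 (chr14:54883175-54883474, plus strand): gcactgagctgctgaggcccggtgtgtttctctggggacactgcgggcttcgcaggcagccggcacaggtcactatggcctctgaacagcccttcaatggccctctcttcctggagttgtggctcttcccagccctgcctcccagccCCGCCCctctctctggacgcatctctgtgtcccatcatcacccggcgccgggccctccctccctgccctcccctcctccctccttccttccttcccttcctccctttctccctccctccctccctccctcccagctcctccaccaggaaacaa
Bad (chr19:6941611-6941910, plus strand): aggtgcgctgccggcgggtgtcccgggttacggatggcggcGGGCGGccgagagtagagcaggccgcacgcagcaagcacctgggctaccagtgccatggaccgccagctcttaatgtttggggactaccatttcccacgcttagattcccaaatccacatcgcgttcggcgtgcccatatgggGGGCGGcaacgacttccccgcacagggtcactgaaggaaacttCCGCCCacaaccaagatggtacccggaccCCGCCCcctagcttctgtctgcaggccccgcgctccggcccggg
Bax (chr7:45466849-45467148, minus strand): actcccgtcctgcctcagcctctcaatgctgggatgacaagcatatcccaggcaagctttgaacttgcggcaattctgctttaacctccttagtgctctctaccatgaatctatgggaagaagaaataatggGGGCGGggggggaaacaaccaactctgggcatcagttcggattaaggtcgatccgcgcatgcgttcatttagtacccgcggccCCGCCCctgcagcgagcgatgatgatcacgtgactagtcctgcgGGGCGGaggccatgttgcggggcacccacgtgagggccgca

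The motif had 1 match in the windows of Bok and Bcl2l2, 3 in that of Bax and 4 in the printed window of Bad, while the window at the other Bad start had 0. Of the 14 windows of the 10 members, 9 held it, as did 35.7% of the 32851 windows of this length in all. GC content was 56.3%, 65.3%, 65.7% and 57.3% in the windows of Bok, Bcl2l2, Bad and Bax, against a median of 52.7% over all windows. TATAAA was in 0 of the 14 windows (13.6% of all windows), TGACGTCA, the cAMP response element, in 0 (1.79%) and CCAAT in 3 (37.4%), counting both strands. Among the members not printed, Bcl2 had 7 matches at a GC content of 76%. Both Bcl2l11 windows had 3 matches each, Bid had 3 and Mcl1 had 1. Bak1 had 0, as had all 3 windows of Bcl2l1, the most abundant guardian. The motif was therefore not particular to the 4 members shown. A match describes letters only.

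Among the effectors, Bok lies on chromosome 1 (93685575 to 93695770, plus strand, GRCm38.p6). It had 2.71, 2.77 and 3.33 CPM in DKO replicates 1, 2 and 3, and 3.41, 4.48 and 4.43 CPM in WT replicates 1, 2 and 3. Every library labelled DKO was below every library labelled WT, but DKO 3 and WT 1 nearly met. The mean was 2.94 ± 0.340 CPM against 4.11 ± 0.600 CPM (SD, n = 3 each), which is 71.7% of the level labelled WT. This was the smallest p among the 10, with a log2 fold change of -0.48 (95% interval -0.82 to -0.14; edgeR adjusted p = 0.0635). In TPM the groups overlapped, at 3.34 to 4.28 against 4.19 to 5.91. With each library's trend on transcript length and GC content removed, the log2 fold change was -0.25 (edgeR adjusted p = 0.349). Bok passed the threshold when WT replicate 1 was left out (log2 fold change -0.61, edgeR adjusted p = 0.0365) or DKO replicate 3 (-0.59, edgeR adjusted p = 0.0390), but in none of the other 4 such fits.

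Bax lies on chromosome 7 (45461695 to 45466903, minus strand), and its transcript of 869 bases is the shortest of the 10. It had 3.94, 4.32 and 5.21 CPM in the libraries labelled DKO and 5.96, 6.54 and 5.01 CPM in those labelled WT. DKO 3 was above WT 3, so the groups overlapped. The log2 fold change was -0.37 (95% interval -0.69 to -0.053; edgeR adjusted p = 0.106), a level of 77.4%. Without DKO replicate 3 it was -0.50 (edgeR adjusted p = 0.0432), and with the length and GC trends removed it was -0.11 (edgeR adjusted p = 0.642). When all tested genes were put in 10 classes by transcript length, the class of the shortest, which includes Bax, had a median log2 fold change of -0.15.

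Bak1, on chromosome 17 (27019812 to 27028627, minus strand), differed little between the groups. It had 12.6, 13.4 and 11.9 CPM in libraries labelled DKO and 11.8, 12.4 and 11.2 CPM in those labelled WT. The log2 fold change was 0.10 (95% interval -0.11 to 0.30; edgeR adjusted p = 0.502), and 0.255 with the length and GC trends removed (edgeR adjusted p = 0.125). Of its exonic bases in GENCODE M21, 614 of 2407 lie opposite exons of Ggnbp1, and strand handling is not given in the sources used here, so some reads could belong to either gene. The deposited Bak1 counts carried fractions in 0 of 6 libraries.

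Among the guardians, Bcl2l2 lies on chromosome 14 (54883366 to 54890858, plus strand). It had 31.9, 36.2 and 38.3 CPM in DKO replicates 1 to 3 and 39.2, 44.6 and 42.3 CPM in WT replicates 1 to 3. The groups did not overlap, with DKO 3 just under WT 1. The mean was 35.5 ± 3.29 CPM against 42.0 ± 2.73 CPM (SD, n = 3 each), or 84.4%. The log2 fold change was -0.24 (95% interval -0.43 to -0.053; edgeR adjusted p = 0.0833). In TPM, DKO 3 (17.9) was above WT 1 (17.6). Without DKO replicate 3 the log2 fold change was -0.31 (edgeR adjusted p = 0.0384), the only fit of those run that called it at 0.05. Of its exonic bases, 594 of 4462 are shared with Gm20521, a gene model on the same strand that was not counted separately here.

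Bcl2l1, on chromosome 2 (152758732 to 152833803, minus strand), encodes a protein that binds both effectors and BH3-only proteins. It had 91.9, 93.1 and 93.8 CPM in libraries labelled DKO and 85.9, 79.3 and 86.6 CPM in those labelled WT, so every library labelled DKO was above every one labelled WT. The level was 111% with a log2 fold change of 0.15 (95% interval -0.0012 to 0.30; edgeR adjusted p = 0.161). In TPM the groups overlapped, at 56.4 to 61.6 against 53.8 to 56.8. It came nearest the threshold with the length and GC trends removed, at a log2 fold change of 0.275 (edgeR adjusted p = 0.0513).

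Mcl1, on chromosome 3 (95656944 to 95663179, plus strand), encodes a guardian with a short-lived protein. It had 97.8, 87.8 and 74.9 CPM in libraries labelled DKO. Those labelled WT had 80.4, 71.1 and 78.5 CPM, and DKO 3 lay among them. The log2 fold change of 0.18 (95% interval -0.034 to 0.39; edgeR adjusted p = 0.229) was 0.28 without DKO replicate 3 (edgeR adjusted p = 0.0446) and 0.072 without DKO replicate 1 (edgeR adjusted p = 0.669). With fragment length as a covariate its sign turned, to -0.22.

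Bcl2, on chromosome 1 (106538176 to 106714290, minus strand), was covered by only 24 to 78 counts per library. It had 1.27, 1.204 and 1.16 CPM in libraries labelled DKO and 0.911, 1.40 and 1.13 CPM in those labelled WT, where the lowest and highest values of the gene both lay. The log2 fold change was 0.06 (95% interval -0.41 to 0.52; edgeR adjusted p = 0.874). The interval includes the log2 fold change of -0.37 measured for Bax, so these libraries do not exclude a difference of that size.

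Among the BH3-only genes, Bad lies on chromosome 19 (6941861 to 6951905, plus strand). It had 38.2, 41.6 and 42.1 CPM in libraries labelled DKO and 46.7, 46.4 and 46.6 CPM in those labelled WT. The libraries labelled WT were nearly equal and all above the others. The mean was 40.6 ± 2.12 CPM against 46.6 ± 0.152 CPM (SD, n = 3 each), or 87.3%, with a log2 fold change of -0.20 (95% interval -0.35 to -0.042; edgeR adjusted p = 0.0841). Bad was the only member whose groups were apart in TPM as well, at 76.7 to 86.0 against 91.2 to 96.8. With the length and GC trends removed, however, the log2 fold change was 0.062 (edgeR adjusted p = 0.563). The gene has a short transcript (1000 bases, median over libraries). Its counts carried fractions in 5 of 6 libraries, so some fragments were shared with another gene, and 524 of its 2558 exonic bases lie opposite exons of Gpr137.

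Bid, on chromosome 6 (120893119 to 120917062, minus strand), encodes the protein that caspase-8 cleaves to link death receptors to mitochondria. It had 4.45, 3.32 and 4.22 CPM in libraries labelled DKO and 4.86, 4.51 and 3.97 CPM in those labelled WT, and the groups overlapped. Its log2 fold change was -0.15 (95% interval -0.47 to 0.17; edgeR adjusted p = 0.512). Of its exonic bases, 628 of 3550 lie opposite exons of Bcl2l13, a family member with a mean of 10.9 TPM over the 6 libraries, against 3.82 TPM for Bid. The deposited Bid counts carried fractions in 0 of 6 libraries.

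Bcl2l11, on chromosome 2 (128126038 to 128162547, plus strand), had 7.71, 7.82 and 7.17 CPM in libraries labelled DKO and 6.41, 9.04 and 7.85 CPM in those labelled WT. The group labelled DKO lay inside the range of the group labelled WT. Its log2 fold change was -0.05 (95% interval -0.32 to 0.23; edgeR adjusted p = 0.832).

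**Figure D3:**
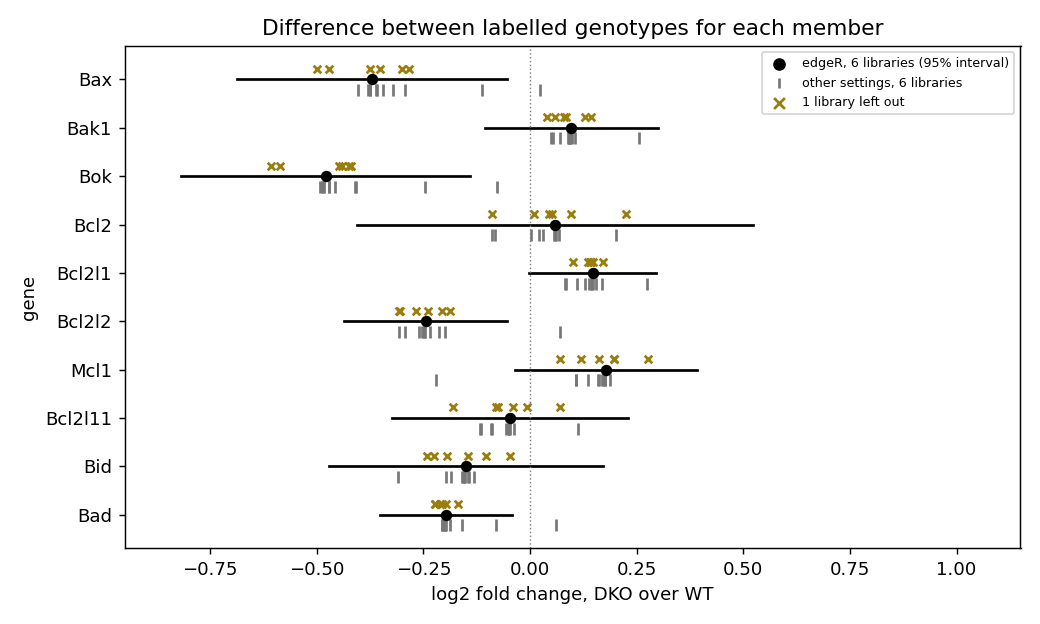
Log2 fold change of each member, DKO over WT (horizontal axis). Black points and lines give the edgeR value and its 95% interval over 6 libraries, grey ticks the other settings with all libraries, and crosses the fits that leave 1 library out. The Bok and Bid values are all negative and the Bak1 and Bcl2l1 values all positive, while grey ticks of Bax, Bcl2, Bcl2l2, Mcl1, Bcl2l11 and Bad lie on both sides of 0.

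Levels of members were also set against each other, with 6 pairs chosen after the levels were seen and no test made. The Bax to Bcl2 ratio in TPM, often quoted as a balance of death and survival, was 38.4, 39.3 and 52.2 in libraries labelled DKO and 73.8, 47.7 and 50.2 in those labelled WT, with overlap, and rested on the 24 to 78 counts of Bcl2. Against Bcl2l1, which is abundant, Bax had TPM ratios of 0.176, 0.181 and 0.212 labelled DKO and 0.260, 0.299 and 0.212 labelled WT, so DKO 3 and WT 3 nearly met. The Bad to Bcl2l1 ratio was 1.35, 1.43 and 1.40 in libraries labelled DKO and 1.70, 1.79 and 1.63 in those labelled WT. Here the groups were apart, as those of Bad alone already were in TPM, so the ratio is not a separate result. The ratios of Bax to Bcl2l2, Bax to Bak1 and Bcl2l1 to Bcl2 overlapped between the groups.

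Fragment length ran alongside several of these values. From the longest to the shortest fragments the libraries were DKO 1 (317 bases), DKO 2 (289), DKO 3 (275), WT 1 (258), WT 3 (246) and WT 2 (230). Both Bok and Bcl2l2 had a higher CPM at each of the 5 steps along that order, which held for 2.05% of all tested genes. Such a rise needs every library labelled DKO to be below every one labelled WT, as in 17.5% of all tested genes. A lower CPM at each step held for 5.07%. Bax was higher at 4 of the 5 steps, Bad, Bcl2l1, Bcl2l11 and Bid at 3, Bak1 and Bcl2 at 2, and Mcl1 at 1. DKO 3 had the shortest fragments of its group. It was the library of that group nearest to the mean labelled WT for Bok, Bcl2l2, Bad, Bax, Mcl1, Bak1 and Bcl2. For Bcl2l1 and Bcl2l11 it was the farthest, and for Bid the nearest was DKO 1. With fragment length as a covariate, the log2 fold change was -0.078 for Bok, 0.072 for Bcl2l2 and 0.025 for Bax, with 0 of the 10 called, and that fit called 1 gene in all. Fragment length did not overlap between the groups, so that fit cannot tell fragment length and genotype apart. With an offset from effective lengths, which corrects only for the positions a fragment can take, the log2 fold change was -0.46 for Bok, -0.26 for Bcl2l2 and -0.29 for Bax, none of them called.

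**Figure D4:**
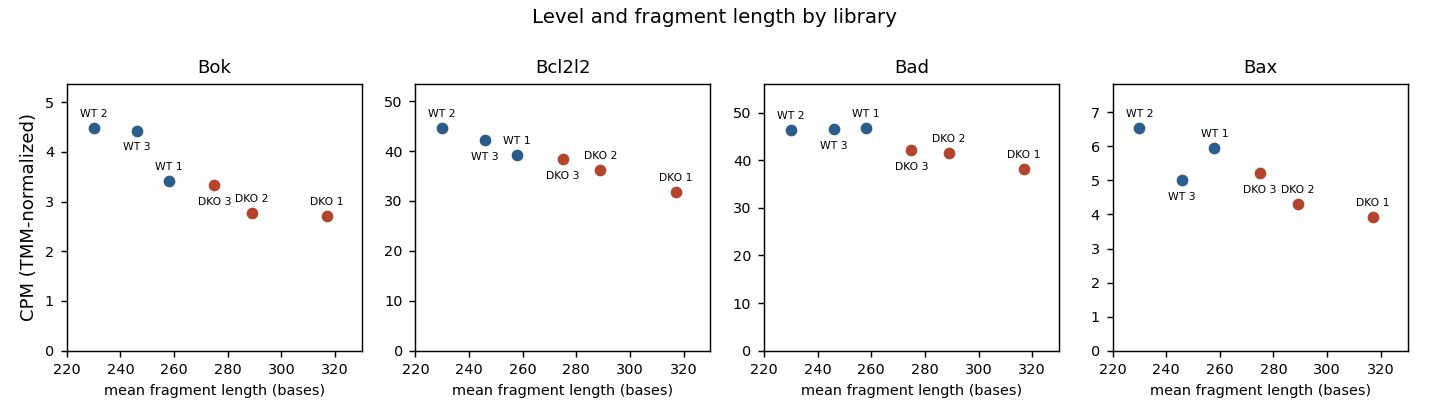
TMM-normalized CPM of Bok, Bcl2l2, Bad and Bax (vertical axes, from 0) against the mean fragment length of each library in bases; WT blue, DKO red, labelled by replicate. Bok and Bcl2l2 are lower at each longer fragment length, from WT 2 at 230 bases to DKO 1 at 317 bases.

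The estimated mix of transcripts was read from the abundance-weighted length of each gene, which can vary only for Bcl2, Bcl2l1, Bcl2l11 and Bad, as the other 6 have 1 transcript in the files. Bcl2l1, with 4 listed transcripts, averaged 2562 ± 21.3 bases in libraries labelled DKO and 2547 ± 11.7 in those labelled WT (SD, n = 3 each; exact permutation test, two-sided, p = 0.4). Bcl2l11, with 5, averaged 4573 ± 27.8 against 4499 ± 141 bases (exact permutation p = 0.4). Bad averaged 1005 ± 7.43 against 995 ± 4.61 bases (exact permutation p = 0.2) and Bcl2 7056 ± 262 against 7080 ± 219 bases (exact permutation p = 1). After adjustment over the 4 genes no p was below 0.533, and 3 against 3 libraries allow none below 0.1 before it. No difference in transcript mix was detectable. The mean lengths do not tell apart the long and short products of Bcl2l1, which differ in function.

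The genes around the family were read from 4 lists of 71 genes, of which 65 were tested. The first held 18 other BCL2 relatives. Of 13 tested, 1 was called higher and 0 lower (10.8% of all tested genes were called), with a median log2 fold change of 0.06. The 1 called was Bnip2, a BCL2-interacting protein, with a log2 fold change of 0.24 (edgeR adjusted p = 0.0499). It was called in 3 of 11 alternatives and 1 of 6 fits that left a library out, and its log2 fold change was 0.105 with the length and GC trends removed and 0.0897 with fragment length as a covariate. Bcl2l14, a relative known for its expression in testis, had the highest level of any BCL2 relative looked at, at 487 TPM (465 to 513 TPM), and a log2 fold change of 0.06 (edgeR adjusted p = 0.647). The BH3-only genes induced by p53, Pmaip1 (NOXA) and Bbc3 (PUMA), had log2 fold changes of 0.43 and -0.01 (edgeR adjusted p = 0.110 and 0.961). Bcl2a1a, Bcl2a1b, Bcl2a1d, Bcl2l10 and Hrk were too low to test, with at most 31 counts in any library.

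Downstream of the pore, 2 of 22 genes for the apoptosome, caspases and their inhibitors were called, both higher, and the list's median log2 fold change was 0.02. Among all tested genes 10.8% were called, the share to set beside this list and the death receptor list below. Cycs, the somatic cytochrome c, had 69.4, 58.6 and 63.9 CPM in libraries labelled DKO and 47.6, 47.3 and 48.7 CPM in those labelled WT, without overlap (edgeR adjusted p = 0.0237, with a log2 fold change of 0.42 and SE of 0.0773). CPM was higher without overlap in 18.4% of all tested genes. Cyct, the testis form of cytochrome c, stood at 79.9 ± 5.18 CPM against 87.1 ± 2.05 CPM (SD, n = 3 each; edgeR adjusted p = 0.256). Birc2, an inhibitor of apoptosis with ubiquitin ligase activity, was at 110, 102 and 100 CPM against 81.9, 81.3 and 86.5 CPM (edgeR adjusted p = 0.0277, log2 fold change 0.32, SE 0.0697). With the length and GC trends removed neither was called, at a log2 fold change of 0.183 for Cycs (edgeR adjusted p = 0.130) and 0.144 for Birc2 (edgeR adjusted p = 0.164). Apaf1, the scaffold of the apoptosome, had a log2 fold change of 0.07 (edgeR adjusted p = 0.712). In the death receptor list 1 of 9 tested genes was called, Tradd, an adaptor of the TNF receptor, which fell from 1.94 ± 0.288 to 1.18 ± 0.119 CPM (SD, n = 3 each; log2 fold change -0.72; edgeR adjusted p = 0.0394). With the length and GC trends removed it was at -0.535 (edgeR adjusted p = 0.126). The list's median was -0.03.

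Of 21 regulators and partners, 4 were called higher and 1 lower, with a median log2 fold change of 0.02. Vdac3, a channel of the outer mitochondrial membrane, had 427, 359 and 391 CPM in libraries labelled DKO and 302, 272 and 304 CPM in those labelled WT (log2 fold change 0.42, SE 0.0831; edgeR adjusted p = 0.0255). Its relative Vdac2, which binds BAK, had a log2 fold change of 0.25 (edgeR adjusted p = 0.0577). The others called higher were Usp9x, a deubiquitinase that stabilises MCL1 (log2 fold change 0.30; edgeR adjusted p = 0.0438), Bclaf1 (0.34; edgeR adjusted p = 0.0458) and the kinase gene Mapk8 (0.27; edgeR adjusted p = 0.0496). With the length and GC trends removed their log2 fold changes were 0.0177 for Usp9x, 0.0878 for Bclaf1 and -0.000703 for Mapk8, and with fragment length as a covariate -0.00644, -0.0449 and 0.063, none of them called. Akt1, a kinase that phosphorylates BAD, was lower, at 37.1, 38.1 and 38.4 CPM against 43.3, 50.8 and 47.0 CPM (log2 fold change -0.31, SE 0.0768; edgeR adjusted p = 0.0357), and its log2 fold change was -0.129 with the length and GC trends removed (edgeR adjusted p = 0.257). In all, 9 of 65 tested pathway genes were called (7 higher, 2 lower), beside the 10.8% of all genes given above. With the length and GC trends removed 1 of the 65 was called, Vdac3 (log2 fold change 0.32; edgeR adjusted p = 0.0397). That fit called 504 of all 17110 tested genes. Leaving out DKO replicate 1, WT replicate 2 or WT replicate 3 left 0 of the 65 called in each case. Those fits called 11, 13 and 7 genes in all, in that order.

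**Figure D5:**
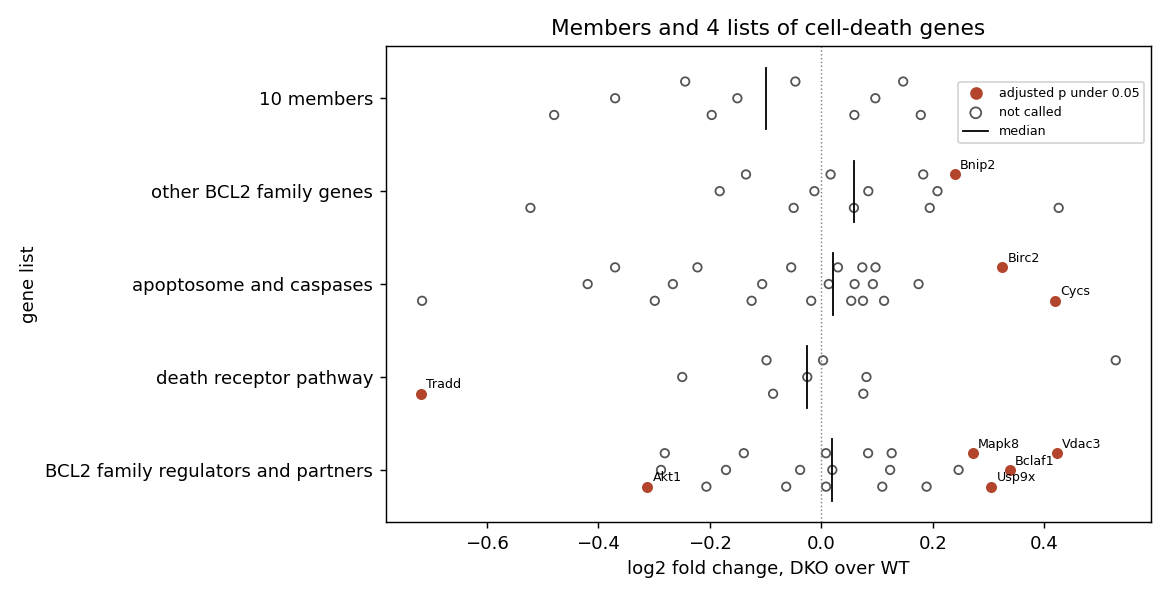
Log2 fold change, DKO over WT, of the 10 members and of the tested genes of 4 cell-death lists (rows); filled points passed an adjusted p of 0.05, open points did not, and vertical lines are list medians. None of the 10 members and 9 of the 65 other genes are filled, where 10.8% of all tested genes were called.

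The genes with profiles most like those of Bok and Bcl2l2, the members with the smallest p, were sought among the other 74 tested members and pathway genes. Likeness was the root mean square difference of log2 CPM, centred on each gene's mean, over the 6 libraries. For Bok the nearest were Akt1 (0.139) and Birc3 (0.143). For Bcl2l2 they were Trp53 (0.0594) and Bad (0.0721). Trp53, which encodes p53, had a log2 fold change of -0.28 (edgeR adjusted p = 0.0601). It was lower without overlap between the groups, as were 17.5% of all tested genes. Bok and Bcl2l2 were picked for their difference between the groups over these same 6 libraries. Genes near them in profile therefore tend to share that difference, along with depth and fragment length. A link between the genes was not tested.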

How the data were processed

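RNA sequencing covered 6 testis libraries, 3 for each genotype label. Per the submitters' processing notes, the tools were STAR 2.7.0f, RSEM 1.2.31 and DESeq2 1.12.3, with genome build mm10. Strand handling and read filters are not given in the sources used here. Per the file headers, the authors deposited for each library an expected count, TPM and FPKM per gene, with a length and an effective length in bases as other values. Of the deposited expected counts, 93.2% were whole (within 0.005). Deposited FPKM was left unused.

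Expected counts were rounded, filtered with filterByExpr, scaled by TMM and tested with edgeR 4.0.16 (glmQLFit, glmQLFTest) over all 6 libraries. Benjamini-Hochberg adjustment ran over the 17110 genes tested, and a call is an adjusted p under 0.05. SE is the absolute log2 fold change over the square root of F. Labels do not say whether littermates were used, and p-values measure the spread between these libraries. No library was a copy of another (smallest chi-square over its degrees of freedom 6.48 among pairs). Mean fragment length was read off genes above 3000 bases, as the median difference between length and effective length, plus 1. The fit was tested on counts simulated from its own dispersions, with no effect of fragment length, and the outcome is not reported here. Alternatives used DESeq2 1.42.0, limma 3.58.1 and mgcv 1.9.3, with GC content for 97.8% of genes from GENCODE M21 transcripts.

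Named were the 10 members, the called genes of each pathway list, the most abundant gene of each marker list, 2 nearest profiles for the 2 members of smallest p, and both targeted genes. Other genes named (Bcl2l14, Pmaip1, Bbc3, Cyct, Apaf1, Vdac2 and Bcl2l13) were chosen after their values were seen. The members and lists were chosen with earlier results of these data known. Promoter windows and loci are from RefSeq tables for GRCm38.p6, which is the mm10 assembly, and matched 10 of 10 members.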

Additional observations from a re-analysis of the deposited data

How the results depend on the processing

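No paired analysis was possible because replicate numbers were given in order of deposition, and the sources used here do not pair the animals. The count of called genes (1856, of which 984 higher and 872 lower) was 504 with length and GC trends removed, 1 with fragment length as a covariate, 2943 with DESeq2, 735 on log2(TPM + 1) (279 higher, 456 lower), 947 on log2(TPM + 0.1) (370 higher, 577 lower), 7 at an adjusted p under 0.01 and 4002 under 0.1. It ranged from 7 to 3029 over the fits that left 1 library out. The count of called members stayed at 0 in all 11 alternatives with 6 libraries at 0.05 and was 3 at 0.1 (Bok, Bcl2l2 and Bad). Leaving out 1 library gave 0 to 4: 4 without DKO replicate 3 (Bok, Bax and Bcl2l2 lower, Mcl1 higher), 1 without WT replicate 1 (Bok) and 0 in the other 4. Among all genes, the fit without DKO replicate 3 called 3029 of 17089 tested, and the fit without WT replicate 1 called 2037 of 17447.

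Of the members' fold changes under the alternatives, 155 kept direction and side of the threshold, 5 newly passed it and 9 changed sign. With fragment length as a covariate the log2 fold change was 0.0246 for Bax, 0.0715 for Bcl2l2, 0.112 for Bcl2l11 and -0.221 for Mcl1. With length and GC trends removed it was -0.083 for Bcl2 and 0.0618 for Bad. Bcl2 was at -0.089 after thinning to equal depth. Over the fits that left 1 library out, Bcl2 ranged from -0.0896 (without WT replicate 1) to 0.226, and Bcl2l11 from -0.18 to 0.0709 (without WT replicate 2). None of the 9 passed the threshold, and the cause was not tested. With a mean count of at least 50, Bcl2 was not tested, and DESeq2 gave it no adjusted p. Bcl2, with 24 to 78 counts per library, had the largest standard error of the 10 (0.212).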
